A study of Mus musculus with 14 samples.

Results

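The genes described here encode the proteins of the cytosolic ribosome, together with Rpl3l, the form of Rpl3 made in heart and skeletal muscle. They were taken by symbol from a read count table of mouse cardiomyocytes: symbols that start with Rpl, Rps or Rplp and a number, plus Rpsa, without S6 kinase genes and without rows named as pseudogenes. The symbols fit 86 of 23337 genes, and the 81 genes with at least 100 counts summed over the 14 libraries are the members. By their symbols, 48 of these are counted with the large subunit and 32 with the small subunit. The counts include Rpl7l1, known from early steps of large subunit assembly, and Rps4y2, annotated as a transcribed pseudogene. Rps19bp1, which fits by its symbol alone, encodes a binding partner of Rps19 and is no ribosomal protein. The rule uses symbols and summed counts, not the groups.

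All mice were Rosa-Cas9GFP animals with Cas9 and GFP at the Rosa locus, injected with an adeno-associated virus on postnatal day 1 and studied at 4 weeks of age. The KO group (7 libraries) received AAV-Ryr2gRNA, a guide RNA against the calcium release channel gene Ryr2. The Ctrl group (7 libraries) received AAV-Cre, which delivers Cre recombinase. The sources used here do not say if Cre was also part of the guide virus, nor where in Ryr2 the guide cuts, so guide and vector effects cannot be told apart. Cardiomyocytes were obtained by Langendorff perfusion and fluorescence sorting, and their poly(A) RNA was made into libraries with SMART-Seq v4 and Nextera XT. Nothing states that the samples of a group are separate animals, so a p-value here reflects the variation among these libraries and could be technical.

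Each cytosolic ribosome has a large and a small subunit, built from ribosomal RNA and a set of mostly small, basic proteins. The messenger RNAs of these proteins begin with a C followed by a run of pyrimidines, the terminal oligopyrimidine motif, through which mTOR signalling sets how well they are translated. Ribosome production is known to accompany growth of heart muscle cells. Rpl3 lies near the catalytic centre of the large subunit, and Rpl3l takes its place in part of the ribosomes of striated muscle.

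Rpl3l lies in mm10 at 24727829 to 24736149 on chromosome 17 (plus strand) and Rpl3 at 80077781 to 80083406 on chromosome 15 (minus strand), with 1595 and 1361 exonic bases counted. Their coding sequences in GENCODE M21 (1221 and 1209 bases) were identical at 896 of 1206 aligned bases (74.3%). The longest run found in both is 22 bases, starting at coding base 145 of each, and they share no stretch of 50 bases. The lines give this run and then coding bases 163 to 222 of each gene, the 60 bases where they differ most, with the 25 differing bases in capitals.
Run in both genes: tacaaggctggcatgacccaca
Rpl3: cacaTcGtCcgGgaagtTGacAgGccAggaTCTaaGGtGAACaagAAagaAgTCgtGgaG
Rpl3l: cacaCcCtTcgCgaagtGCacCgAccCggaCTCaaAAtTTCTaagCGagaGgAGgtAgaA
Since no 50-base stretch is shared, reads of at least that length differ between both genes. Within the annotation, 100% of the 50-base stretches of Rpl3l occur in no other gene model, but 32.9% of those of Rpl3, which has 26 other gene models sharing some. How the authors' counting treated reads with several positions is not stated, so the level of Rpl3, as of other members with processed copies, is less certain than that of Rpl3l.

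The pyrimidine tract can be seen in the DNA around the start sites, taken from RefSeq promoters (GRCm38.p6), which matched 61 members. The lines show 15 bases either side of the start for 4 members with a tract and 3 without, on the gene's strand, with the tract in capitals.
Rpl15, chr14:18270972-18271001, minus strand: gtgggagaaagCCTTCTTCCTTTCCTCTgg
Rpl35, chr2:39005117-39005146, minus strand: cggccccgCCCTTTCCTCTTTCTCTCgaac
Rps18, chr17:33955651-33955680, minus strand: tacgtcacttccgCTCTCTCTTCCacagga
Rps6, chr4:86857353-86857382, minus strand: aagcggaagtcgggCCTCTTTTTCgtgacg
Rpl3l, chr17:24727811-24727840, plus strand: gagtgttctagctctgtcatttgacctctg
Rplp0, chr5:115559452-115559481, plus strand: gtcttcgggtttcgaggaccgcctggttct
Rpl10, chrX:74270801-74270830, plus strand: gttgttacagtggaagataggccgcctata
A tract was counted where a C followed by C or T made a run of at least 8 bases within the 30 bases either side of a start, on the gene's strand only. It was present in 32 of the 61 members (52.5%), against 20.5% of other genes (18.2% of all 32851 promoters in the table). A match is a description of letters near an annotated start, and the start used in cardiomyocytes may lie elsewhere.

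Library depth ranged from 5689335 to 13165662 counts. Ryr2, which checks the labels, was at 675 ± 71.4 CPM in Ctrl and 309 ± 48.1 CPM in KO (mean ± SD, n = 7 each; CPM are counts relative to the TMM-scaled library size), with no overlap of the groups. All 10 cardiomyocyte markers were present in every library and summed to 115400 to 136100 CPM in Ctrl and 93370 to 124500 CPM in KO. The libraries Ctrl4, Ctrl5, KO4 and KO5, which carry library indices 7 to 10, stood apart: their 8 fibroblast markers summed to 596 to 1233 CPM against 162 to 377 CPM in the other 10, and their 12 macrophage markers to 116 to 451 against 24.9 to 98.6 CPM. Endothelial markers followed the same division, at 705 to 934 against 270 to 603 CPM. No label calls these indices a batch. KO7 stood apart by its ribosomal protein level, so results are also given without it and within each of these sets of libraries.

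Rpl3l fell and Rpl3 rose in KO cardiomyocytes. In Ctrl1 to Ctrl7, Rpl3l was at 232, 224, 225, 204, 204, 205 and 265 CPM. In KO1 to KO7 it was at 115, 133, 108, 75.5, 74.2, 80.9 and 109 CPM. Every KO library lay below every Ctrl library, and the means were 223 ± 21.98 CPM in Ctrl and 99.4 ± 22.7 CPM in KO (SD, n = 7 each). The log2 fold change was -1.16 (SE 0.121), or 2.24-fold lower, with an adjusted p of 2.7e-06 in edgeR's quasi-likelihood test with Benjamini-Hochberg (BH) adjustment over all 11170 genes tested. Rpl3 was at 38.2, 33.1, 38.0, 35.8, 47.8, 44.99 and 29.7 CPM in Ctrl1 to Ctrl7. In KO1 to KO7 it was at 66.9, 61.7, 82.8, 86.7, 74.3, 93.2 and 114.9 CPM. The groups again did not overlap, here with KO higher. The Rpl3 means were 38.2 ± 6.36 and 82.9 ± 17.9 CPM, a log2 fold change of 1.12 (SE 0.133), or 2.17-fold higher (adjusted p 1.0e-05, same test). For comparison, the authors' deposited table lists -1.17 for Rpl3l and 1.11 for Rpl3.

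**Figure D1:**
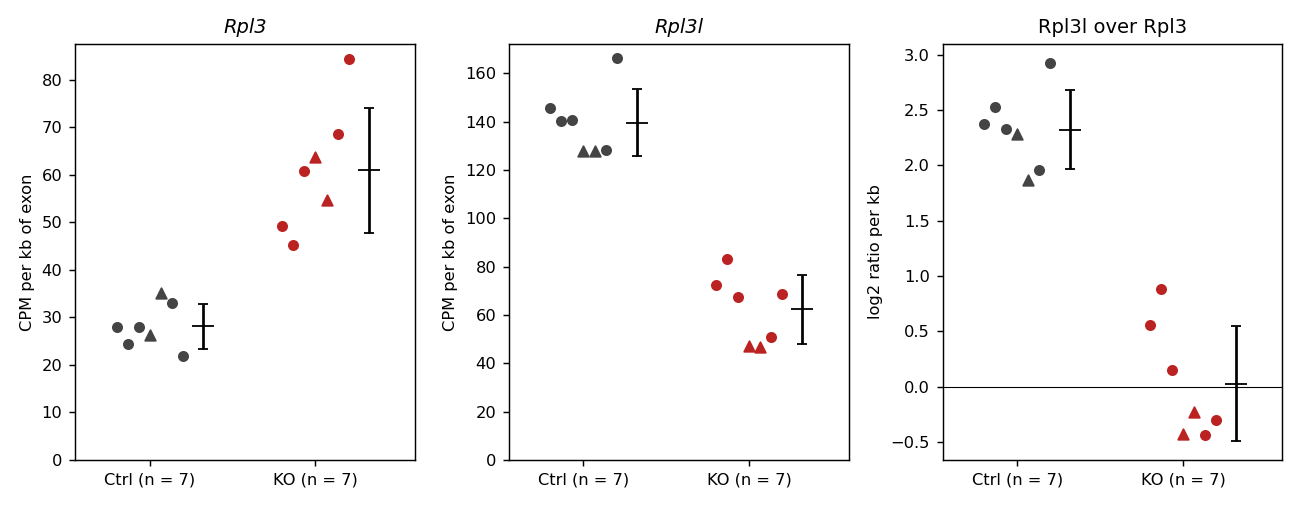
Levels of Rpl3 and Rpl3l in CPM per exonic kb and the log2 of their ratio per kb, by library and group. Points are libraries, triangles those with library indices 7 to 10, and bars give mean ± SD (n = 7 per group). Rpl3l lies at 128 to 166 CPM per kb in Ctrl and 46.5 to 83.3 CPM per kb in KO. Rpl3 lies at 21.8 to 35.1 CPM per kb in Ctrl and 45.3 to 84.4 CPM per kb in KO.

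Set per kilobase of exon, so that the genes can be compared, Rpl3l exceeded Rpl3 in every Ctrl library. The ratio of Rpl3l to Rpl3 was 5.18, 5.76, 5.03, 4.85, 3.64, 3.88 and 7.60 in Ctrl1 to Ctrl7. It was 1.47, 1.84, 1.11, 0.743, 0.852, 0.740 and 0.812 in KO1 to KO7. In 4 of the KO libraries, KO4 to KO7, Rpl3 was thus the higher of the pair, and in no Ctrl library. On the log2 scale the ratio was 2.32 ± 0.355 in Ctrl and 0.027 ± 0.518 in KO, a change by 4.91-fold (two-sided exact permutation test over 3432 assignments, p = 0.00058, the smallest this design allows). Rpl3l made up 83.1 ± 3.35% of the pair in Ctrl (78.4 to 88.4%) and 50.4 ± 8.82% in KO (42.5 to 64.8%). In CPM per kb, both summed to 168 ± 10.8 in Ctrl (154 to 188) and 123 ± 16.3 in KO (101 to 153). In these counts the gain of Rpl3 was thus smaller per kb than the loss of Rpl3l. Only 32.9% of the 50-base stretches of Rpl3 occur in no other gene model, against 100% for Rpl3l. How reads with several positions were counted is not stated. The ratios, shares and sums, and which gene was higher, could therefore differ from those given.

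The Rpl3l and Rpl3 changes were present in both sets of libraries. Among the 4 libraries with indices 7 to 10, Rpl3l had a log2 fold change of -1.49 (edgeR adjusted p 9.9e-06) and Rpl3 of 0.90 (0.0031). Among the other 10 libraries the values were -1.07 (1.2e-05) and 1.19 (1.2e-04). Without KO7, Rpl3l stood at -1.19 and Rpl3 at 1.02.

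The other ribosomal protein genes were mostly higher in KO cardiomyocytes, by less than Rpl3. All 81 members passed the filter on low counts, and 52 were called higher (adjusted p under 0.05), where 14.5% of all genes tested were. The call in the other direction was made for Rpl3l alone, where 13.7% of all genes were called lower and 28.2% in either direction. The log2 fold change was above 0 for 80 of 81 members, against 52.2% of all genes. Its median was 0.44 (1.36-fold) with quartiles of 0.32 and 0.56, and the median over all genes was 0.01. The authors' deposited table has the same number of higher members, 52 (12.4% of all genes there), with 1 lower and 79 at a positive value. DESeq2 run on the counts also called 52 higher (12.7% of all genes).

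**Figure D2:**
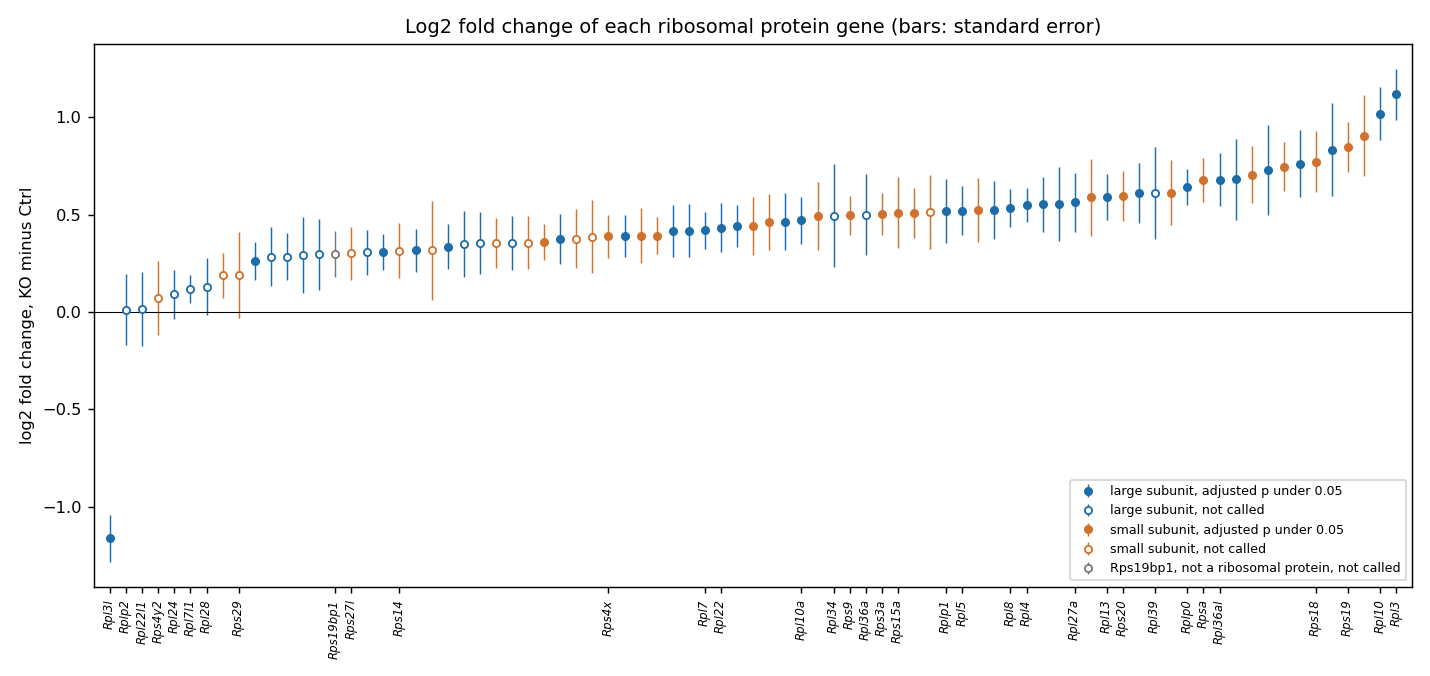
Log2 fold change (KO minus Ctrl) of each of the 81 members, ordered by value, with bars of 1 SE from the edgeR fit and names for genes described in the text. Of these, 80 lie above 0 and Rpl3l lies lowest at -1.16, while the median of all 11170 genes is 0.01.

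The increase was also seen in the share of all counts that fell on these genes. The members took 0.389, 0.344, 0.383, 0.350, 0.420, 0.349 and 0.383% of counts in Ctrl1 to Ctrl7. In KO1 to KO7 they took 0.452, 0.482, 0.552, 0.505, 0.448, 0.575 and 0.777%. Every KO library lay above every Ctrl library, with means of 0.374 ± 0.0276% and 0.542 ± 0.114%, a ratio of 1.45. These shares are of library totals without TMM scaling. With TMM scaling the groups overlapped in the median log2 difference of the members from the Ctrl mean. This median ranged from -0.205 to 0.167 in Ctrl and from 0.0759 to 1.01 in KO. KO5 and KO1 lay nearest to the Ctrl libraries and KO7 farthest from them. In KO7, 79 of the 81 members exceeded their highest Ctrl value, in KO3 76 and in KO6 75, but in KO5 20, in KO1 31 and in KO4 32. The share of all genes above their highest Ctrl value was not computed by library, so these counts lack a background.

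**Figure D3:**
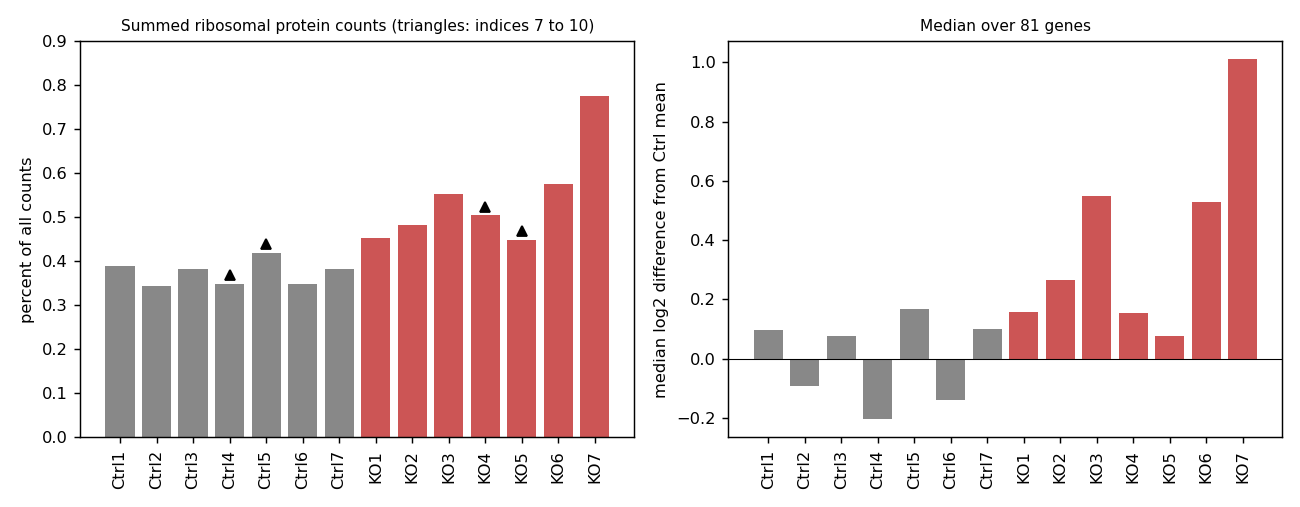
Left, percent of each library's counts on the 81 members, for the 7 Ctrl and 7 KO libraries. Triangles above these bars mark library indices 7 to 10. Right, for each library, the median over the 81 members of the log2 difference from the Ctrl mean. The Ctrl libraries reach 0.344 to 0.420% and the KO libraries 0.448 to 0.777%, with KO7 highest.

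Fewer members were called among the 4 libraries with indices 7 to 10 than among the other 10, which are more numerous. The median change was also smaller within indices 7 to 10. Within these 4 libraries 5 of 81 members were called higher, a share near the 5.84% of all genes, and Rpl3l was lower. The median log2 fold change was 0.09, and 59 of 81 members were above 0. Within the other 10 libraries 61 members were higher (12.5% of all genes), with a median of 0.52 and 80 members above 0. Leaving out KO7 from all libraries gave 41 higher members (13.5% of all genes) and a median of 0.32, and leaving it out of the 10 libraries gave 47 (11.3%) and 0.38. All 52 members called higher in the full set were also called in the 10 libraries, and 5 of the 52 within indices 7 to 10. A test of the difference between both sets (interaction of group and index set in edgeR) called 0 of 81 members and 0% of all genes; at an unadjusted p under 0.05 it gave 6 members, all with a smaller change within indices 7 to 10, and 339 of all genes. Its median was -0.37 over the members and 0.0039 over all genes. The interaction was negative for 79 of 81 members and for 5513 of all 11170 genes. Of the 52 members, 37 stayed called whichever library was left out, and the count was lowest without Ctrl6 (37) and highest without KO4 or KO5 (60).

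**Figure D4:**
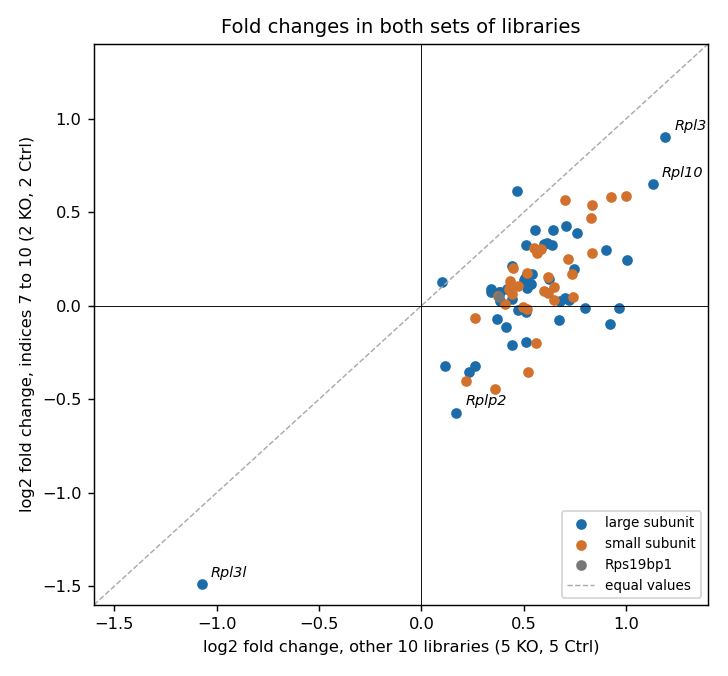
Log2 fold change (KO minus Ctrl) of each member within library indices 7 to 10 (2 against 2 libraries, y axis) against that within the other 10 libraries (5 against 5, x axis). Medians are 0.09 and 0.52, and Rpl3 and Rpl3l keep their directions in both.

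Markers of cardiomyocytes and of other cells were set beside these results. Of the 10 cardiomyocyte markers, 6 were called lower in edgeR and 0 higher (13.7% and 14.5% of all genes). Their median log2 fold change was -0.27, with 9 of 10 negative. The 12 macrophage markers summed to 24.9 to 120 CPM in Ctrl and 62.4 to 451 CPM in KO, with 3 of the 10 tested called higher in edgeR and all 10 at a positive log2 fold change. The 8 pericyte and smooth muscle markers summed to 990 to 1289 CPM in Ctrl and 1415 to 2253 CPM in KO, but Acta2 held 68.6% of their counts. The other 7 summed to 386 to 551 CPM in Ctrl and 299.7 to 545 CPM in KO, and of all 8, 3 were called higher and 1 lower (median 0.19). Likewise Nppa held 94.9% of the counts of the 6 atrial markers (270 to 958 CPM in Ctrl, 494 to 2061 CPM in KO). The 5 others summed to 2.44 to 203 and 7.41 to 131 CPM, and 3 of the 4 tested had a negative log2 fold change. Fibroblast markers overlapped between the groups (187 to 603.5 CPM in Ctrl and 162 to 1233 CPM in KO). Of the 7 tested, 0 were called, and all 7 had a positive log2 fold change (median 0.72, median SE 0.44). Endothelial markers overlapped as well (335 to 886 and 270 to 934 CPM), with 0 of 8 called and 7 negative. Lymphocyte markers summed to at most 2.28 CPM in any library. Erythroid markers summed to 0.863 to 16.1 CPM in Ctrl and up to 73.5 CPM in KO (KO2), of which Beta-s held 89.2%, while Hba-a1 and Hba-a2 had no counts. With the macrophage level as a covariate in edgeR, 70 members were higher (14.9% of all genes), and the log2 fold change of Rpl3l was -0.98. The part of the other cell types in the members' change was not tested. In bulk libraries, less RNA per cell and fewer cells of a type cannot be told apart.

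Genes of both subunits rose. In the large subunit 31 of 48 genes were higher (14.5% of all genes were higher) and Rpl3l lower. Their median log2 fold change was 0.44, against 0.01 over all genes. In the small subunit 21 of 32 were higher and none lower (14.5% and 13.7% of all genes), with a median of 0.48. Within indices 7 to 10, 3 large and 2 small subunit genes were called higher (5.84% of all genes). The large subunit took 0.233% of counts in Ctrl and 0.334% in KO, and the small subunit 0.140% and 0.206%. The ratio of large to small subunit counts was 1.67 ± 0.0285 in Ctrl (1.64 to 1.72) and 1.63 ± 0.0547 in KO (1.52 to 1.69), with overlapping groups and the lowest value in KO7.

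The large subunit genes with the smallest p-values apart from Rpl3, Rpl3l and the stalk were Rpl10, Rpl4 and Rpl8. Rpl10, which joins the subunit late in its maturation and lies near the peptidyl transferase centre, was at 32.8 to 41.4 CPM in Ctrl (median 39.4) and 54.5 to 122.3 CPM in KO (median 74.8). The groups did not overlap, and the log2 fold change was 1.02 (SE 0.135, edgeR adjusted p 3.1e-05). Rpl8, also part of the peptidyl transferase region, ranged over 68.2 to 88.1 CPM in Ctrl (median 76.3) and 91.9 to 151.6 CPM in KO (median 113.9), a log2 fold change of 0.54 (adjusted p 5.3e-04). Rpl4, which lines the tunnel through which the new protein leaves, was at 188 to 232 CPM in Ctrl (median 204) and 245 to 399.9 CPM in KO (median 295). It rose by 0.55 on the log2 scale (edgeR adjusted p 1.8e-04), and the groups did not overlap. Rpl13 rose by 0.59 (edgeR adjusted p 0.0013), from 103 ± 12.99 to 155 ± 33.98 CPM (SD, n = 7 each), with overlapping libraries.

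Of the stalk proteins, which recruit the elongation factors, Rplp0 and Rplp1 rose. Rplp0, the base of the stalk, had the highest level of all members per kb (301 CPM per kb over all libraries). It was at 301 to 342 CPM in Ctrl (median 320) and 389 to 655 CPM in KO (median 479), with no overlap. Its log2 fold change was 0.64 (SE 0.0912, edgeR adjusted p 5.9e-05). Rplp1 rose by 0.52 (edgeR adjusted p 0.025), from 54.8 ± 10.1 to 78.2 ± 23.4 CPM, with overlapping libraries. Rplp2, which pairs with Rplp1, was at 67.0 ± 12.6 CPM in Ctrl and 67.3 ± 22.8 CPM in KO, a log2 fold change of 0.01 (SE 0.182, adjusted p 0.98) whose sign changed between settings. Differences in change among the stalk genes were not tested.

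Rps19 and Rpsa were among the small subunit genes with the smallest p-values. Rps19, needed for maturation of the small subunit and mutated in Diamond-Blackfan anaemia, was at 23.9 to 34.2 CPM in Ctrl (median 31.4) and 43.4 to 80.3 CPM in KO (median 48.9). It rose by 0.85 on the log2 scale (SE 0.129, edgeR adjusted p 1.1e-04). Rpsa, which is also known as the laminin receptor, was at 48.4 to 63.4 CPM in Ctrl (median 57.8) and 72.1 to 130.6 CPM in KO (median 86.8), a log2 fold change of 0.68 (SE 0.113, adjusted p 2.5e-04). Neither overlapped between the groups. Rps18 (0.77), Rps20 (0.60), Rps3a (0.50) and Rps9 (0.50) rose as well, with edgeR adjusted p-values of 0.0013 to 0.0024.

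In all, the KO libraries lay entirely above the Ctrl libraries for 15 members, where this held for 5.84% of all genes. Among them were Rpl3, Rpl4, Rpl8, Rpl10, Rpl12, Rpl36al and Rplp0 of the large subunit, and Rps3a, Rps6, Rps9, Rps18, Rps19 and Rpsa of the small subunit. Rps6 is the target of the S6 kinases. The KO libraries lay entirely below for Rpl3l alone, against 4.71% of all genes.

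Among the copies of ribosomal protein genes that have their own symbol, Rpl3l fell and Rpl36al rose. Rpl36al, a copy of Rpl36a, was at 28.5 to 34.5 CPM in Ctrl (median 32.9) and 35.5 to 78.1 CPM in KO (median 46.4), a log2 fold change of 0.68 (SE 0.137, edgeR adjusted p 0.0013). Its parent Rpl36a had 0.50 (adjusted p 0.084). Rpl7l1, known from early steps of large subunit assembly, was at 129.6 ± 9.43 CPM in Ctrl and 140.5 ± 15.6 CPM in KO, a log2 fold change of 0.12 (SE 0.0708, adjusted p 0.24), while its parent Rpl7 rose by 0.42 (0.0033). Rpl22l1 was at 10.4 CPM in both groups, a log2 fold change of 0.02 (SE 0.188, adjusted p 0.96), while Rpl22 rose by 0.43 (0.015). Rps27l, a known target of p53, had 0.30 (SE 0.136, adjusted p 0.11). Its parent Rps27 was below the count minimum. The row Rps4y2, now named Rps4l and annotated as a transcribed pseudogene, had 0.07 (adjusted p 0.83), and Rps4x rose by 0.39 (0.013). The differences between copy and parent were tested for Rpl3l and Rpl3 only. Rpl39 had 0.61 (adjusted p 0.064), and its copy Rpl39l had 4 counts in all.

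Of the 28 members that were not called, all had a log2 fold change above 0. Their median was 0.30 with a median SE of 0.157, against a median SE of 0.133 for the called ones. The largest p-values outside the genes already described belonged to Rpl24 (0.09), Rps29 (0.19) and Rpl28 (0.13, each a log2 fold change), with adjusted p-values of 0.57 to 0.65. Rps14, the second highest member per kb at 211 CPM per kb, had 0.31 (adjusted p 0.11). Rps19bp1, outside the ribosome, had 0.30 (0.074).

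Levels of the members spread widely. Per kb of exon and over all libraries, Rplp0 (301 CPM per kb), Rps14 (211), Rps27l (187), Rpl4 (182) and Rpl13 (165) were highest. Rpl34 (2.50), Rps15a (4.47), Rpl22 (13.1) and Rpl27a (13.9) were lowest, followed by Rpl5. Among these, Rps15a, Rpl27a and Rpl5 rose by 0.51, 0.56 and 0.52 on the log2 scale. The rows that fit the symbols but missed the minimum were Rpl30 with 33 counts, Rps27 with 25, Rpl39l with 4, and Rpl10l and Rpl26 with 0, where 3 counts over all libraries would be 0.0282 CPM. Rpl30, Rps27 and Rpl26 are core proteins of every ribosome, so these counts are not read as absence of the message. The member nearest above the minimum was Rpl34 with 159 counts, and the next was Rps12 with 947.

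Medians between 0.43 and 0.50 were found in members with different gene properties, and the counts called higher stand against 14.5% of all genes. Of 40 members above the median level per kb 27 were higher (median log2 fold change 0.43), and of the 41 others 25 (median 0.46). Of the 19 members with at least 80% of their 50-base stretches in no other gene model, 11 were higher and Rpl3l was lower (median 0.50). Of 27 members with under 50% such stretches, 18 were higher (median 0.46). The 6 rows named as processed copies held 98 counts in all. Of 31 members with at most 600 exonic bases 13 were higher (median 0.46). Of the 50 longer members 39 were higher and Rpl3l was lower (median 0.44). The median SE was 0.182 for the shorter members and 0.125 for the longer ones. Among 132 other genes with at most 600 exonic bases 8 were higher (6.06%) and 35 lower (26.5%), with a median of -0.22. Of 32 members with a pyrimidine tract 22 were higher (median 0.48), and of the 29 without 17 were higher and Rpl3l lower (median 0.44). Rpl10 and Rplp0, which rose, have no tract in the windows shown, and neither has Rpl3l.

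Genes outside the symbols that encode cytosolic ribosomal proteins gave mixed values. Gnb2l1, the scaffold protein Rack1 of the small subunit, rose by 0.49 (edgeR adjusted p 0.0012), from 84.8 ± 4.58 to 119 ± 22.8 CPM. Fau, made as a fusion with a ubiquitin-like protein, had 0.26 (0.24).

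Ribosomal proteins of the mitochondria moved in the other direction. Of 76 tested, 0 were higher and 43 lower in edgeR (13.7% of all genes were lower), with a median log2 fold change of -0.27. Mrps35 fell from 161 ± 16.5 to 108 ± 12.7 CPM (-0.58, adjusted p 4.9e-05), Mrps9 from 88.7 ± 4.36 to 63.3 ± 5.76 CPM (-0.49, 2.1e-05) and Mrpl37 from 188 ± 10.8 to 144 ± 10.8 CPM (-0.38, 1.1e-04). Within indices 7 to 10, 33 of 76 were lower (6.59% of all genes; median -0.40), and within the other 10 libraries 37 of 76 (11.6% of all genes; median -0.25).

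**Figure D5:**
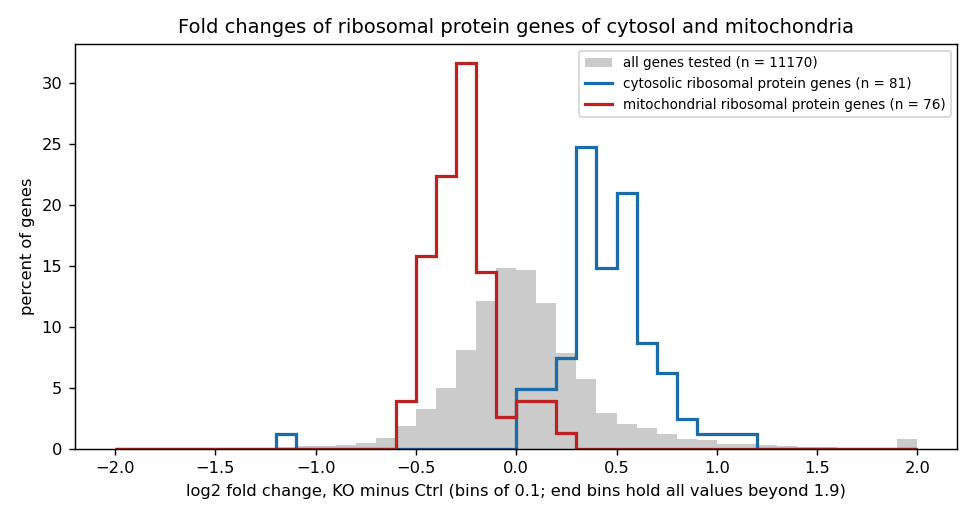
Distribution of log2 fold changes (KO minus Ctrl) of the 81 cytosolic members, the 76 mitochondrial ribosomal protein genes and all 11170 genes tested, each as percent of its set. The cytosolic set centres on 0.44, the mitochondrial set on -0.27 and all genes on 0.01.

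Genes that build ribosomes or use them rose in part. Of 28 assembly factors and chaperones, 15 were higher and none lower (14.5% and 13.7% of all genes), with a median of 0.24. Sbds, which frees new large subunits for translation, rose by 0.48 (edgeR adjusted p 1.6e-05) and its KO libraries (59.7 to 69.8 CPM) lay above the Ctrl libraries (43.9 to 52.2 CPM). Bop1 (0.47) and Pes1 (0.37), partners in large subunit maturation, and the nucleolar helicase Ddx21 (0.50) rose as well. Of 42 translation factors 15 were higher (14.5% of all genes) and only Eif4e, the cap-binding factor, was lower (-0.27, edgeR adjusted p 0.0035; 13.7% of all genes), with a median of 0.14. Eef1a1, the elongation factor that brings transfer RNA and that adult heart muscle largely replaces by Eef1a2, was at 61.0 to 90.3 CPM in Ctrl (median 64.2) and 289 to 473.9 CPM in KO (median 312). It rose by 2.25 on the log2 scale, or 4.75-fold (SE 0.124, edgeR adjusted p 2.2e-09). Eef2, the translocation factor, rose by 0.73 (3.4e-06), Eif3c by 0.88 (3.8e-06) and Eif3b by 0.43 (7.0e-05).

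Of 23 genes that control ribosomal protein messages or ribosome production, 3 were higher, a share below the 14.5% of all genes, and 1 was lower (4.35%, against 13.7% of all genes), with a median of 0.01. The 4 called genes are given as single genes. Myc, a transcription factor that drives ribosome production, was at 1.46 to 5.52 CPM in Ctrl (median 2.80) and 14.1 to 48.7 CPM in KO (median 18.0), without overlap. Its log2 fold change was 2.98 (SE 0.307, edgeR adjusted p 2.4e-06). Eif4ebp1, a brake on cap-dependent translation that mTOR releases, rose by 0.64 (1.0e-04), and Pdcd4, an inhibitor of the helicase Eif4a, by 0.73 (0.019). Larp1b, a relative of the protein that binds pyrimidine tracts, fell by 0.41 (0.0026), with overlapping libraries at 49.1 to 72.7 CPM in Ctrl and 42.1 to 57.9 CPM in KO.

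Scaling moved the number called. With library totals alone in place of TMM scaling, 70 members were called higher (27.4% of all genes) and their median was 0.57, but the median of all genes was then 0.15.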

How the data were processed

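The authors' deposited table holds raw read counts per gene, not normalized. Build mm10 and the programs featureCounts, STAR, DESeq and DESeq2 are named in the submitters' processing notes. Their versions, the annotation, the strand setting and the handling of multi-mapped reads were not given in the sources used. The authors' second deposited table holds a mean signal per gene (counts divided by size factors), log2 fold changes, a score (the Wald statistic) and p-values of their own comparison, per the file headers, and is quoted only as theirs.

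Counts were tested in edgeR 4.0.16 under R 4.3.3 with its two-sided quasi-likelihood test (filterByExpr, TMM) on 7 KO and 7 Ctrl libraries, without covariates, with BH adjustment over 11170 genes and calls at an adjusted p under 0.05. The biological coefficient of variation was 16.2%. SE is the absolute log2 fold change divided by the root of F. The ratio of Rpl3l to Rpl3 used a prior count of 0.5. The test was checked on simulated data. DESeq2 1.42.0, other scalings, other filters and subsets of libraries were alternatives. Sequences were read with Python 3.11.15 from GENCODE M21 and RefSeq. Reads carry no molecular identifiers, so floors cover counting error only.

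The members and lists were chosen with earlier results of these data known. Named genes are Rpl3 and Rpl3l, copies with their parents, the stalk genes, Rpsa, members with the 10 smallest p-values, the 5 highest and 5 lowest levels and the 3 largest p-values, up to 4 genes per list, and 3 mitochondrial genes. Tract examples were chosen after their sequences were seen. A few genes that this rule names are left out here. Columns unmapped to a sample: 0.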

Additional observations from a re-analysis of the deposited data

Results flagged for a closer look

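KO7 lay far above the next KO library for 16 named genes and for the ribosomal protein share, judged by the gap to the nearest library relative to the range of the group. The share was 0.777% of counts in KO7 and 0.575% in the next library. Among large subunit genes KO7 had 122.3 CPM of Rpl10 (next 76.7), 151.6 of Rpl8 (115), 42.2 of Rpl22 (32.3), 32.5 of Rpl36a (19.1) and 31.3 of Rpl39 (19.6). Among small subunit genes it had 130.6 CPM of Rpsa (next 94.6), 80.3 of Rps19 (56.4), 64.6 of Rps18 (42.9), 140.8 of Rps3a (104), 218.0 of Rps14 (155) and 150.9 of Rps27l (100.7). Outside the members it had 45.9 CPM of Fau (next 29.4), 48.7 of Myc (26.3), 57.9 of Larp1b (48.7), 473.9 of Eef1a1 (366.5) and 724.8 of Eef2 (564.5). In the control group Ctrl7 had 194.2 CPM of Mrps35, and the next library 164.3. In all, 116 groups of 7 values were examined and 18 stood out, 17 of them through KO7; chance flags about 5% of groups, and these genes share their libraries.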

How the results depend on the processing

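The count of members called higher kept within 1.5 times its value of 52 under every scaling, filter and covariate tried (48 to 70). The share of all genes called higher moved too. It was 9.39% without the filter (48 members), 27.4% with library totals alone and 14.9% with the macrophage covariate (70 members each). With only library indices 7 to 10, 5 members were higher (3 large, 2 small subunit), where 5.84% of all genes were. The median log2 fold change was then 0.09072. There the Rpl3l to Rpl3 log2 ratio changed by -2.40 with p = 0.33, the smallest exact permutation p of 2 against 2 libraries. With only members of at least 80% unique stretches, chosen after seeing the data, 11 of 19 were higher (4 large, 7 small). Leaving out each library in turn gave 37 (without Ctrl6) to 60 higher members and medians of 0.32 (without KO7) to 0.49, with 12.7 to 14.8% of all genes higher. Rpl3 (0.90 to 1.25) and Rpl3l (-1.49 to -0.98) kept direction and call in every setting. Values near 0 changed sign. Rplp2 had -0.0011 with DESeq2 and -0.023 with a term for indices 7 to 10. Within indices 7 to 10 it had -0.57, Rpl22l1 -0.32, Rpl36a -0.077, Rps4y2 -0.40, Rpl39 -0.013, Fau -0.079, Rpl28 -0.32, Rps29 -0.45 and Rpl24 -0.36. Within the other 10 libraries without KO7, chosen after seeing the data, Rpl22l1 had -0.052. Leaving out each library gave -0.13 to 0.10 for Rplp2, -0.14 to 0.099 for Rpl22l1, -0.0085 to 0.18 for Rps4y2 and -0.010 to 0.16 for Rpl24. The cause was not tested.

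Deviations of same-numbered libraries correlated with r of 0.061 to 0.53, over 0.1 in 6 of 7 pairs, and 3 of 14 libraries correlated best with their own number. Pairs 4 and 5 lie within indices 7 to 10. Since 1 pair was under 0.1 and no label ties the numbers, they were not treated as pairs. With the replicate block 62 members were higher and 1 lower, and the median was 0.42. Calls over all genes rose as well, to 17.2% higher and 16.5% lower, from 14.5% and 13.7% without the block. Rpl22l1 had -0.026 and Rplp2 -0.033. The block also called Rps27l (0.27, edgeR adjusted p 0.032), Rpl36a (0.44, 0.029), Rpl39 (0.54, 0.025), Rps14 (0.29, 0.023) and Rps19bp1 (0.28, 0.036), which were not called without it. Rpl34 had 159 counts, with an SE of 0.265.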
